A study of Homo sapiens with 6 samples.

Results

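The EGF family receptors and ligands were examined as 10 named genes in SKOV3, an established cell line from a human ovarian cancer: the receptor genes EGFR, ERBB3 and ERBB4 and the ligand genes NRG1, NRG2, HBEGF, EREG, BTC, EGF and AREG. Of these, 9 were measured among 14884 genes in all, each through whichever of its probe sets averaged highest over the 6 arrays. AREG carries no symbol in the probe annotation used here and was not analysed. The cells were cultured for 11 days in McCoy's 5A medium with 15% serum, either on low-attachment plates with 0.015% (w/v) of the medium additive FP001 (3D, n = 3 arrays) or on attachment plates in normal medium (2D, n = 3 arrays). Both groups are the same line, and since the 3D samples differed in both plate and additive, the part of each cannot be told apart. FP001 is known here only by its code name. Nothing in the labels says whether the arrays of a group came from separate cultures, so each p-value measures the spread between these samples alone, and that spread may be technical. Since RNA was taken from whole cultures, a shift in which cells were present and a shift in RNA per cell cannot be told apart.

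EGF family ligands are made as membrane-anchored precursors that are cut free by metalloproteinases of the ADAM family, and they bind receptor tyrosine kinases that signal as dimers. EGF, AREG, EREG, HBEGF and BTC bind EGFR, and several of them also bind ERBB4, whereas the neuregulins NRG1 and NRG2 bind ERBB3 and ERBB4. ERBB3 has little kinase activity of its own and signals through its partners. SKOV3 is known for extra copies of ERBB2, the family member without a known ligand. ERBB2 and the ligand gene TGFA were not analysed here.

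Values are log2 values made by the RMA method, in which 1 unit is a 2-fold difference, and levels of different genes are not set against each other. Over all genes, pairs of 3D arrays correlated at 0.988 to 0.995, pairs of 2D arrays at 0.991 to 0.993, and pairs of 1 array from each group at 0.975 to 0.982. The array of 3D replicate 1 stood apart from the other 3D arrays, with correlations of 0.988 to each. Of 5 measured markers of ovarian carcinoma 1 rose and 1 fell: SOX17 averaged 8.56 in 3D and 6.93 in 2D cells, FOLR1 8.80 in 3D and 9.60 in 2D cells, and PAX8, which did not pass, 10.34 in 3D and 10.18 in 2D cells. The mean of that list ran from 7.82 to 8.09 in 3D and from 7.63 to 7.82 in 2D arrays. The epithelial marker EPCAM averaged 9.96 in 3D and 8.20 in 2D cells. Of 7 measured epithelial markers 4 rose (EPCAM, KRT19, CLDN3 and CLDN4) and 1 fell, KRT7, which averaged 5.13 in 3D and 6.07 in 2D cells. KRT8 and KRT18 did not pass. The mean of the list ran from 7.84 to 8.06 in 3D and from 7.11 to 7.17 in 2D arrays. Of the fibroblast markers 2 of 7 were measured, and the list mean ran from 6.43 to 6.58 in 3D and from 4.08 to 4.40 in 2D arrays. LUM averaged 10.47 in 3D and 6.08 in 2D cells, and DCN 2.57 in 3D and 2.45 in 2D cells. The gap in the list mean was thus almost all LUM. Of 7 leukocyte markers 2 were measured (6.62 to 6.75 in 3D, 6.46 to 6.58 in 2D), and of 5 endothelial markers 3 (4.44 to 4.77 in 3D, 4.17 to 4.24 in 2D), and 1 of each list rose. The part of these markers in the results below was not tested.

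Of the 9 measured EGF family genes 5 changed between the cultures, at an adjusted p under 0.05 in limma, beside 10% of all genes tested. The receptor gene ERBB4 and the ligand gene BTC rose (2 of 9, beside 5.23% of all genes), and the receptor gene EGFR and the ligand genes NRG1 and HBEGF fell (3 of 9, beside 4.77%). The genes ERBB3, NRG2, EREG and EGF did not pass. The groups did not overlap for 6 of the 9 genes, beside 29.2% of all genes, with 3 genes higher in every 3D array (beside 13.8%) and 3 lower in every 3D array (beside 15.3%). A change that passed and was at least 2-fold was seen for ERBB4, BTC and NRG1, 3 of 9 beside 2.88% of all genes. At an unadjusted p under 0.05 the same 5 genes passed, beside 23.5% of all genes. Without 3D replicate 1 the counts were 3 higher and 3 lower, EGF being the added gene. The number higher was 1 without 3D replicate 2 and also without 2D replicate 1, where BTC was lost, and the number lower was 2 without 3D replicate 3, where HBEGF was lost. The median change was 0.14 over the 9 genes and -0.01 over all genes. The members were chosen with earlier results of these data known, so their shares beside those of all genes are no test of the family.

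**Figure D1:**
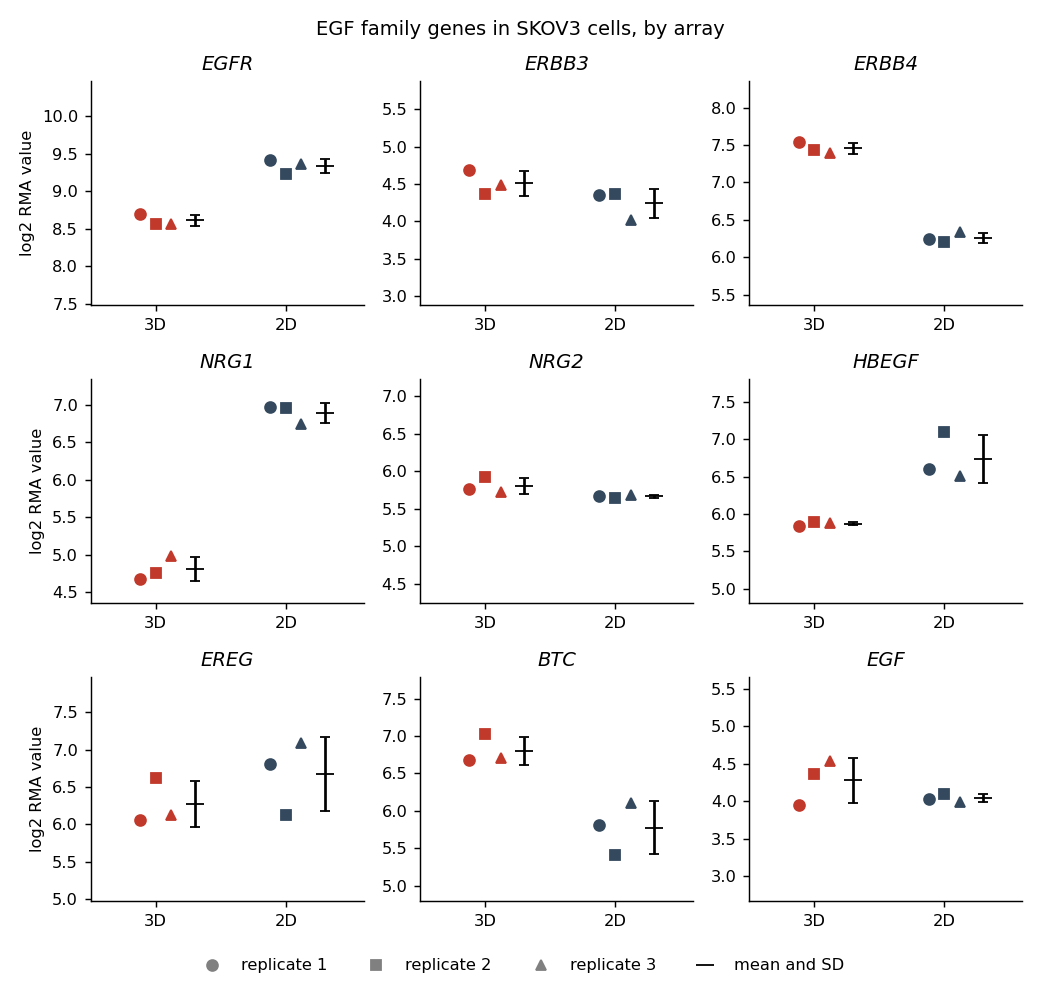
Log2 RMA value of each measured EGF family gene (vertical axis, the same 3-unit span in every panel) in the 3 arrays of 3D culture, left, and the 3 arrays of 2D culture, right, with the group mean and SD beside the points. All 3D arrays lie above all 2D arrays for ERBB4, BTC and NRG2 and below them for EGFR, NRG1 and HBEGF.

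Among the receptors, EGFR, which binds EGF, HBEGF, BTC and EREG, read 8.70, 8.56 and 8.57 in 3D, against 9.42, 9.24 and 9.36 in 2D. Every 3D array lay below every 2D array. The mean was 8.61 ± 0.08 in 3D and 9.34 ± 0.09 in 2D cells (SD, n = 3 each), a log2 fold change of -0.73 ± 0.10 (SE, limma adjusted p = 0.00361), which is 1.66-fold lower. The call held in each fit without 1 array (adjusted p up to 0.0229) and was lost in the per-gene test with unequal variances (0.0546).

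ERBB4, a receptor kinase for neuregulins, BTC and HBEGF, moved the other way. It read 7.54, 7.43 and 7.39 in 3D, against 6.24, 6.20 and 6.33 in 2D, and the lowest 3D array lay 1.06 units above the highest 2D array. The change was 1.197 ± 0.09 (SE, limma adjusted p = 0.000325), or 2.29-fold, with means of 7.45 ± 0.07 in 3D and 6.26 ± 0.07 in 2D cells (SD, n = 3 each). No alternative ended this call, with an adjusted p of up to 0.0262. ERBB3, the neuregulin receptor with little kinase activity, read 4.69, 4.36 and 4.48 in 3D, against 4.35, 4.36 and 4.02 in 2D arrays. The lowest 3D array equalled the highest 2D array (4.36), which was counted as an overlap. Its change of 0.27 ± 0.14 (SE) had an adjusted p of 0.295 (limma), with a 95% interval from -0.05 to 0.58 on the log2 scale.

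The 250 bases upstream of the RefSeq start are shown for the receptor genes that changed, since a reader can see in them how unlike these starts are in base composition. EGFR has starts of this kind at chr7:55018767-55019016 and chr7:55109589-55109838, both on the plus strand of chromosome 7, and ERBB4 has one at chr2:212538803-212539052 on the minus strand of chromosome 2 (GRCh38.p14, sequences from RefSeq). Capitals mark matches to the letters TGANTCA (AP-1), GGAATG (TEAD), GTAAACA (FOXO) or GCGNGGGCG (EGR1) on either strand.
EGFR, the first start: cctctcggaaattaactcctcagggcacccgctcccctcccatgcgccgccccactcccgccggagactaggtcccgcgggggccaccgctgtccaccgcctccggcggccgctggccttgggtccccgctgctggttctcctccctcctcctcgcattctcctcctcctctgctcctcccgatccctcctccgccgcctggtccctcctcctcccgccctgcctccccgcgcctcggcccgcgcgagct
EGFR, the second start: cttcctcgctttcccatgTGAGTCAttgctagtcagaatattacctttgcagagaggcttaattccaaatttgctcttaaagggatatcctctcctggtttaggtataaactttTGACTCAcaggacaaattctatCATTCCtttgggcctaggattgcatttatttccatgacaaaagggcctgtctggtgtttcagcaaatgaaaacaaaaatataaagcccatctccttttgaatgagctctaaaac
ERBB4: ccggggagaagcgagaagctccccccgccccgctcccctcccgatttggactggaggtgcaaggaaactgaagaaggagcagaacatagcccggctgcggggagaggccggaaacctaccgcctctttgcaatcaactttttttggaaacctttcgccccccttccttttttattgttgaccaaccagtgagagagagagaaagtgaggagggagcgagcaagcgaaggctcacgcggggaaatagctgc

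G and C made up 73.6% of the first EGFR window, 38.8% of the second and 57.2% of the ERBB4 window, beside a median of 58.0% over all promoters. The second EGFR window held TGANTCA at 232 to 226 and again at 136 to 130 bases before the start, and GGAATG at 114 to 109 bases before it. The first EGFR window and the ERBB4 window held none of the 4 motifs. Of 34788 distinct promoter windows of the same length, 6.59% held the AP-1 letters, 11.9% the TEAD letters, 2.98% the FOXO letters and 8.41% the EGR1 letters. A match is a run of letters and was not tested as a binding site, and the array values do not say which start was used.

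Among the ligands, NRG1, which binds ERBB3 and ERBB4, changed the most. Its values were 4.67, 4.75 and 4.98 in 3D, against 6.98, 6.96 and 6.74 in 2D. The lowest 2D array lay 1.76 units above the highest 3D array. The mean was 4.80 ± 0.16 in 3D and 6.89 ± 0.13 in 2D cells (SD, n = 3 each), and the log2 fold change was -2.09 ± 0.12 (SE, limma adjusted p = 0.000107), or 4.26-fold lower. By size of change NRG1 was number 23 of the genes that were lower in 3D. The call held under every alternative run, with an adjusted p of up to 0.0389.

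The other measured neuregulin, NRG2, differed little between the cultures. It read 5.76, 5.93 and 5.72 in 3D, against 5.66, 5.65 and 5.69 in 2D arrays, so the groups did not overlap but lay close. The change was 0.14 ± 0.10 (SE, limma adjusted p = 0.466), with a 95% interval from -0.09 to 0.36. A further NRG2 probe set, of lower mean, gave -0.01 ± 0.10, and no other member had more than 1 probe set. The 95% interval of NRG1 ran from -2.37 to -1.81, so the intervals of the 2 neuregulin genes did not meet.

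HBEGF, a heparin-binding ligand of EGFR and ERBB4, was lower in 3D. It read 5.84, 5.89 and 5.88 in 3D, against 6.61, 7.10 and 6.50 in 2D. The 3D arrays lay within 0.05 of each other, and 2D replicate 2 was the highest of all arrays. The mean was 5.87 ± 0.03 in 3D and 6.74 ± 0.32 in 2D cells (SD, n = 3 each), a change of -0.87 ± 0.16 (SE, limma adjusted p = 0.0138), or 1.82-fold lower. The call was lost without 3D replicate 3 (adjusted p = 0.0518) and in the test against a 1.2-fold limit (0.0670).

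BTC, betacellulin, another ligand of EGFR and ERBB4, was higher in 3D. Its values were 6.68, 7.02 and 6.71 in 3D, against 5.81, 5.41 and 6.11 in 2D. The lowest 3D array exceeded the highest 2D array by 0.57. The mean was 6.80 ± 0.19 in 3D and 5.77 ± 0.35 in 2D cells (SD, n = 3 each), a change of 1.03 ± 0.19 (SE, limma adjusted p = 0.0135), or 2.04-fold. Leaving out 3D replicate 2 ended the call (adjusted p = 0.0515), and so did leaving out 2D replicate 1 (0.0515).

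The windows upstream of HBEGF (chr5:140346604-140346853, minus strand of chromosome 5) and BTC (chr4:74794524-74794773, minus strand of chromosome 4) are shown as those of the 2 EGFR ligands that changed in opposite directions (GRCh38.p14, RefSeq), with the same motifs in capitals.
HBEGF: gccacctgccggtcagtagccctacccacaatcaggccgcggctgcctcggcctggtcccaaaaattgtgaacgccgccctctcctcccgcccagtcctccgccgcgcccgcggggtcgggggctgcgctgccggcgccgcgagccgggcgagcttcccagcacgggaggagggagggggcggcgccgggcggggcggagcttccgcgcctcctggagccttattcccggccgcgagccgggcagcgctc
BTC: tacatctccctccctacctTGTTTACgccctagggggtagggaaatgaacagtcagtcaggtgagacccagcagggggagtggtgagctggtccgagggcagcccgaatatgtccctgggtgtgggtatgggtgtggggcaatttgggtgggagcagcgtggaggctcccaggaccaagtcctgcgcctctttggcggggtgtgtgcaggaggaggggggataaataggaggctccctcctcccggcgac

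The HBEGF window had 76.4% G and C and held none of the 4 motifs. The BTC window had 62.0% G and C and held the FOXO letters, read on the opposite strand, at 231 to 225 bases before the start. Windows were read for 7 of the 9 measured genes, 9 windows in all. None was read for ERBB3, which had no entry among the promoters used, or for NRG1, whose chromosome was left out of the reading. In the other windows read, TEAD letters were found upstream of EREG, and AP-1 and TEAD letters that share bases upstream of EGF. EGR1 letters were found at 1 of 2 NRG2 starts.

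EREG, epiregulin, a ligand of EGFR and ERBB4, had the widest spread of the members among 2D arrays. It read 6.06, 6.62 and 6.13 in 3D, against 6.80, 6.13 and 7.09 in 2D arrays. The 2D arrays spanned 0.96 units, and 2D replicate 2 lay among the 3D values. The change was -0.41 ± 0.26 (SE, limma adjusted p = 0.416), with a 95% interval from -1.01 to 0.19. EGF itself, the ligand that names the family, read 3.95, 4.36 and 4.54 in 3D, against 4.03, 4.10 and 3.99 in 2D arrays. The array of 3D replicate 1 was below all 2D arrays and the other 3D arrays were above them. The change of 0.24 ± 0.15 (SE) had an adjusted p of 0.411 (limma), and without 3D replicate 1 it was 0.41 ± 0.10 at an adjusted p of 0.0457.

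**Figure D2:**
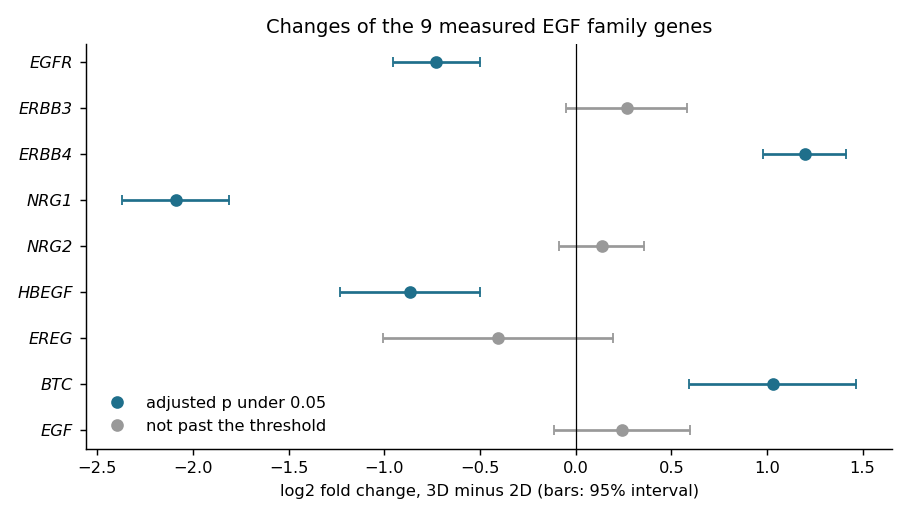
Log2 fold change, 3D minus 2D (horizontal axis), of the 9 measured genes, with the 95% interval of the limma fit. The intervals of ERBB4 and BTC lie above 0, those of EGFR, NRG1 and HBEGF below 0, and those of ERBB3, NRG2, EREG and EGF include 0.

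**Figure D3:**
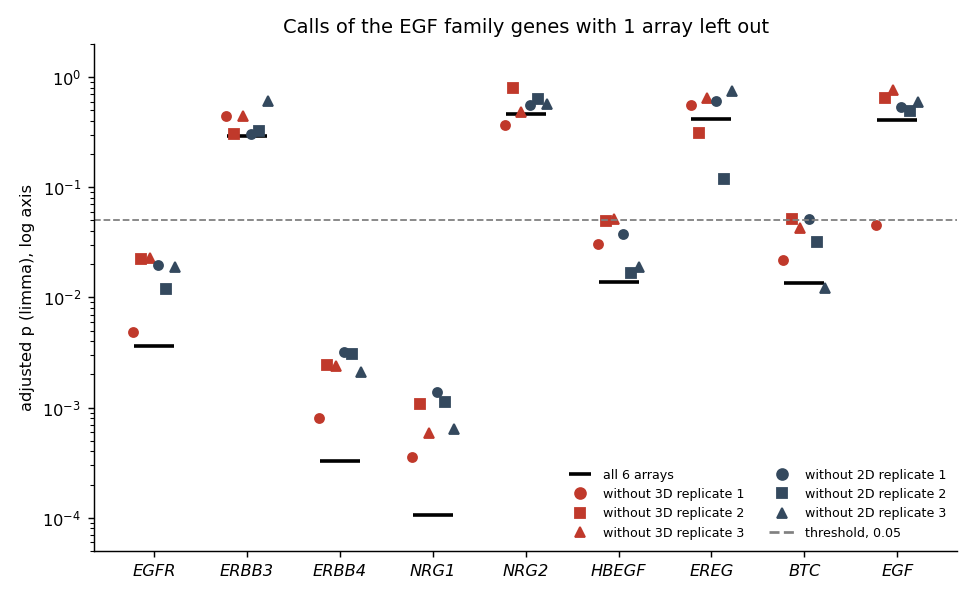
Adjusted p (limma, log axis) of each measured gene with all 6 arrays (black bars) and without each array in turn (points). NRG1, ERBB4 and EGFR stay under 0.05 without any array, HBEGF and BTC reach 0.0518 and 0.0515, and EGF passes only without 3D replicate 1.

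Genes that act with the family were counted from 6 lists. The counts stand beside 5.23% of all genes higher and 4.77% lower in 3D at an adjusted p under 0.05 in limma. At an unadjusted p under 0.05, 1716 of all 14884 genes were higher and 1777 lower. Of the other family genes 3 of 5 were measured, and 1 rose, the neuregulin gene NRG4, a ligand of ERBB4. It read 5.13, 6.03 and 5.83 in 3D, against 4.67, 4.30 and 4.09 in 2D arrays, and the groups did not overlap. The change was 1.31 ± 0.25 (SE, limma adjusted p = 0.0152), and 3 arrays each ended the call when left out, namely 3D replicate 3 and 2D replicates 2 and 3 (0.0627 at most). NRG3 gave 0.01 ± 0.09 and EPGN, encoding epigen, -0.37 ± 0.17, and neither passed.

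Of 17 measured genes of ligand shedding and trafficking, 4 fell, 0 rose and 13 did not pass, with a median of -0.14 beside -0.01 over all genes (at an unadjusted p under 0.05, 5 were lower and 0 higher in limma). The cornichon gene CNIH3 fell by 0.99 ± 0.10 (SE), the metalloproteinase gene ADAM19 by 0.71 ± 0.13, and the inactive rhomboid genes RHBDF1 and RHBDF2, whose products carry ADAM17 to the cell surface, by 0.51 ± 0.11 and 0.42 ± 0.09. ADAM17, known from mouse cells as the main sheddase of HBEGF and EREG, averaged 8.89 ± 0.08 in 3D and 9.26 ± 0.18 in 2D cells (SD, n = 3 each; limma adjusted p = 0.101). ADAM10, known from mouse cells as that of EGF and BTC, averaged 10.20 ± 0.02 in 3D and 10.40 ± 0.07 in 2D cells (limma adjusted p = 0.228). The call of CNIH3 held without any array. ADAM19 lost its call without 3D replicate 2 (0.0598), RHBDF1 in every such fit but the one without 3D replicate 1 (up to 0.0935), and RHBDF2 in the 4 fits without replicate 2 or 3 of either group (up to 0.125). The list's count of fallen genes was then 1 without 3D replicate 2, and 2 when 3D replicate 3 or either of 2D replicates 2 and 3 was left out.

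Of 26 listed genes that restrain receptors or take part in their turnover, 16 were measured. Of these, 2 rose, 1 fell and 13 did not pass (median -0.09). SPRY2, a feedback inhibitor of ERK signalling, rose by 1.47 ± 0.12 (SE). LRIG1, a transmembrane protein that limits EGFR family receptors, rose by 0.60 ± 0.12. The cytokine signalling suppressor gene SOCS3 fell by 1.10 ± 0.15. With the mean of its probe sets the change of SOCS3 was smaller, at -0.77 ± 0.14 (SE, limma adjusted p = 0.0141). ERRFI1, an inhibitor of the EGFR kinase, averaged 9.67 ± 0.09 in 3D and 10.22 ± 0.34 in 2D cells (SD, n = 3 each; limma adjusted p = 0.0878). LRIG1 kept its call only in the fit that left out 3D replicate 1, its adjusted p otherwise reaching 0.0832, so that 1 gene rose in the other 5 such fits. Without 2D replicate 1 the fallen genes numbered 3.

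Of 33 listed adaptors and first effectors, 22 were measured. Of these, 3 rose, 4 fell and 15 did not pass (median -0.03). The focal adhesion gene TNS4, which is known to rise with EGFR signalling, rose by 1.79 ± 0.11 (SE). The adaptor gene GRB7 rose by 1.33 ± 0.14 and the exchange factor gene VAV3 by 0.80 ± 0.14. VAV3 averaged 4.10 in 3D and 3.29 in 2D cells, both below the mean of the array medians (4.33). Its call held without any single array (limma adjusted p up to 0.0496) and was lost in 3 of 17 alternatives. VAV2, a relative of VAV3, fell by 0.61 ± 0.10 and the adaptor gene NCK2 by 0.49 ± 0.09. The other genes that fell, named after their values were seen, were the adaptor gene SHC1 (-0.44 ± 0.09) and the kinase gene SRC (-0.39 ± 0.09). GRB2, the adaptor that links receptors to RAS activation, gave 0.10 ± 0.09 (limma adjusted p = 0.601). Leaving out replicate 3 of either group ended the call of NCK2 (0.0647 at most), and leaving out any array but 3D replicate 1 ended those of SHC1 and SRC (0.0854 and 0.164 at most). The count of fallen genes in these fits was 1 or 2.

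Of 26 listed EGF response genes, 21 were measured. Of these, 2 rose, 2 fell and 17 did not pass (median -0.13). At an unadjusted p under 0.05 in limma, 4 were higher and 9 lower. The ERK phosphatase gene DUSP6 and the early growth response gene EGR3 rose, EGR3 with 5.97 ± 0.24 in 3D and 4.81 ± 0.21 in 2D cells (SD, n = 3 each), a change of 1.16 ± 0.16 (SE, limma adjusted p = 0.00362). The change of DUSP6 was 2.46 ± 0.15 (SE, limma adjusted p = 0.000139). The transcription factor genes FOSL1 and MYC fell by 1.02 ± 0.12 and 0.97 ± 0.13. EGR1 read 10.40, 11.20 and 11.22 in 3D, against 9.01, 10.73 and 9.19 in 2D arrays, and FOS 7.08, 8.09 and 8.30 in 3D, against 5.93, 7.10 and 5.85 in 2D arrays. For both genes 2D replicate 2, the array with the highest HBEGF value, was the highest 2D array and overlapped with 3D replicate 1. EGR1 and FOS gave adjusted p-values of 0.127 and 0.0568 (limma), and without 2D replicate 2 they passed (0.0126 and 0.0267), so that 4 genes rose. Without 3D replicate 1 FOS passed (0.0215) and the fallen genes numbered 4. With all arrays FOS also passed under repeated quantile normalization (0.0454), with the mean of its probe sets (0.0366), with a trended robust variance (0.0265) and with array weights (0.0180), 6 of 17 alternatives in all.

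Of 15 measured FOXO targets and genes of PI3K feedback, 1 rose, 1 fell and 13 did not pass (median -0.07). The transcription factor gene FOXO1 averaged 8.34 ± 0.14 in 3D and 7.32 ± 0.07 in 2D cells (SD, n = 3 each), a rise of 1.02 ± 0.11 (SE, limma adjusted p = 0.00105). The insulin receptor substrate gene IRS2 fell by 0.78 ± 0.14 and its call ended when 3D replicate 3, 2D replicate 2 or 2D replicate 3 was left out (0.0584 at most), so that 0 genes fell in those fits. Without 3D replicate 1, 2 genes rose.

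**Figure D4:**
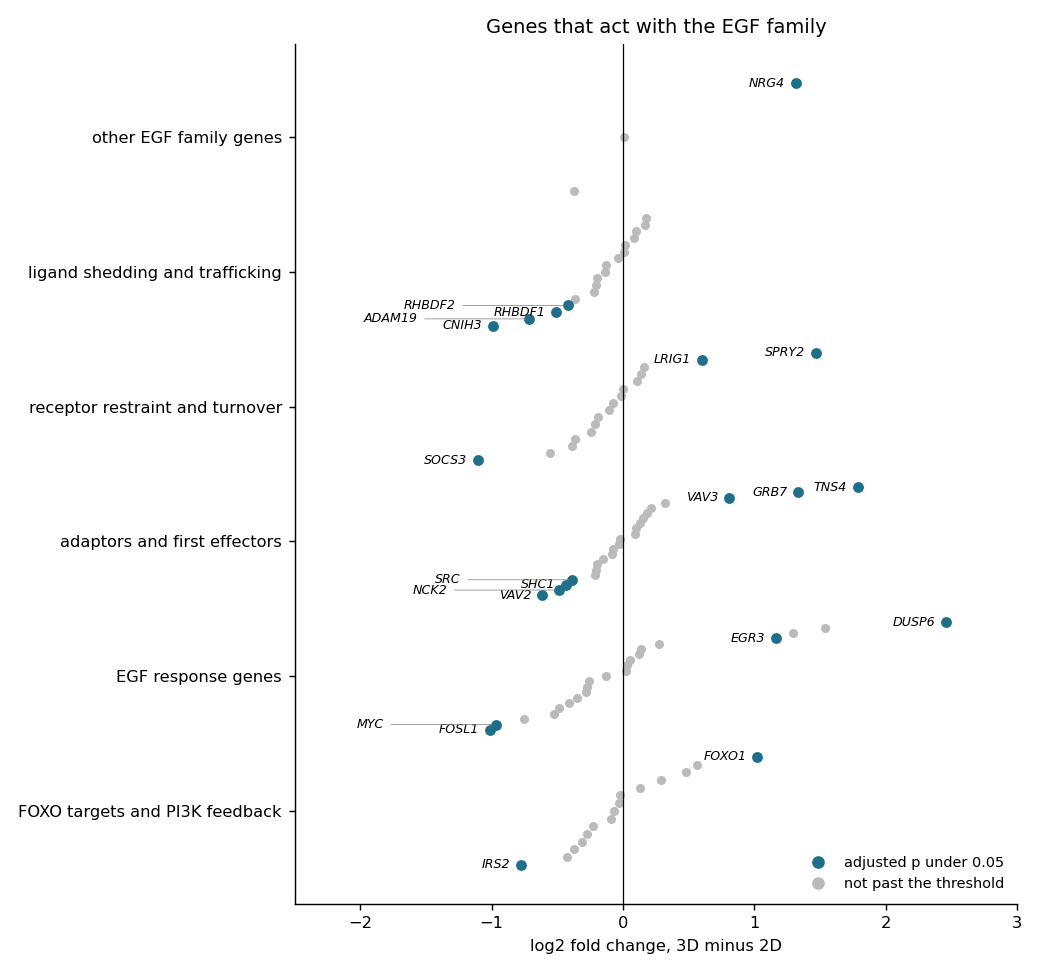
Log2 fold change, 3D minus 2D (horizontal axis), of the measured genes of 6 lists of genes that act with the EGF family, 1 point per gene, with the genes past an adjusted p of 0.05 in blue and named. The named genes of ligand shedding and trafficking all lie below 0, and the other lists with more than 1 named gene hold named genes on both sides of 0.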

How the data were processed

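Total RNA (100 ng per sample) of 3 samples labelled 3D and 3 labelled 2D was hybridised to 1 array each. The deposited table holds log2 values, which the authors made with RMA per the submitters' processing notes, for 53617 probe sets. RMA corrects background, equalises the arrays' distributions and summarises probes, and it compresses changes of dim probe sets. No version or filter is named in the labels. That the scale is log2 was read from the range of the deposited values (0.30 to 13.87). The labels name a 3′ labelling kit, whereas the probe annotation is that of another array type, and this was not resolved. The number of arrays limits the precision, and no detection calls were given.

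In the annotation used here 16098 probe sets carry 1 symbol, 0 several and 37519 none. Symbols were updated by gene identifier through a RefSeq table (GRCh38.p14), and each of 14884 genes was represented by its probe set with the highest mean. Groups were compared with limma 3.58.1 in R 4.3.3 (group as the only term, two-sided), with Benjamini-Hochberg adjustment over all genes and a threshold of 0.05. The script was tested on simulated data. All measured members are named, and of each list up to 5 genes past the threshold with the largest change. The members and lists were chosen with earlier results of these data known. Lists are given as counts and medians, with no test. Promoter windows are the 250 bases before each RefSeq start, and for the members those on the chromosome of NRG1 were not read. The alternatives were 17 fits: other normalizations, filters, probe set choices, variance models, array weights, a replicate block, other tests and leaving out each array.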

Additional observations from a re-analysis of the deposited data

How the results depend on the processing

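The directions of all 9 members were the same in all 17 alternatives. The calls of ERBB4 and NRG1 held in each. BTC kept its change of 1.03 but lost its call with all probe sets tested singly (adjusted p = 0.0568), the replicate block (0.0637) and the per-gene test with unequal variances (0.184). HBEGF kept its change of -0.87 and lost its call with all probe sets tested singly (0.0589), the per-gene test (0.251) and the 1.2-fold limit (0.0670). EGFR, at -0.73, lost its call in the per-gene test (0.0546). Leaving out single arrays moved the changes of BTC between 0.85 and 1.197, of EGF between 0.12 and 0.41 and of HBEGF between -0.98 and -0.68, and those of the uncalled EREG between -0.68 and -0.20, ERBB3 between 0.15 and 0.34 and NRG2 between 0.07 and 0.18. The number of members higher in 3D was 1 with all probe sets tested singly, the replicate block and the per-gene test, and 1 to 3 without single arrays. The number lower was 1 in the per-gene test. Over all genes 778 were higher and 710 lower, against 385 and 276 with all probe sets tested singly, 1353 and 1185 with array weights, 433 and 327 with the replicate block, 41 and 41 in the per-gene test and 353 and 239 against the 1.2-fold limit. Without single arrays they were 420 to 1096 higher and 349 to 803 lower, the highest counts without 3D replicate 1.

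The labels do not say whether the replicate numbers pair the arrays. Deviations of same-numbered arrays from their group means correlated at -0.28, -0.06 and -0.18. With 3 arrays a group, these correlations cannot show whether the arrays were paired. With the replicate block BTC alone among the members lost its call.

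Of the 26 named genes other than the members that passed, NRG4 among them, the per-gene test left 2, all probe sets tested singly and the 1.2-fold limit ended 11 calls each, the replicate block 9, and a repeated quantile normalization 1 (SRC). Of the lists' genes, the per-gene test called 1 adaptor and 1 EGF response gene as higher and 0 in the other lists in either direction. With all probe sets tested singly 1 adaptor, 1 shedding gene and 0 FOXO targets fell, and 1 restraint gene and 0 other family genes rose. The replicate block gave 1 fallen adaptor, 1 fallen shedding gene, 0 fallen FOXO targets and 0 risen other family genes. Against the 1.2-fold limit 0 adaptors, 1 shedding gene and 0 FOXO targets fell and 1 restraint gene rose. The trended robust variance called 7 EGF response genes and 5 restraint genes as lower, array weights 7 and 3 (with 2 FOXO targets in each direction), and the repeated quantile normalization 2 restraint genes. Without single arrays the fallen adaptors numbered 1 to 4, the fallen shedding genes 1 to 4, the fallen restraint genes 1 to 3, the risen restraint genes 1 to 2, the risen and fallen EGF response genes 2 to 4 each, the risen FOXO targets 1 to 2, the fallen ones 0 to 1 and the risen other family genes 0 to 1. The cause of these shifts was not tested.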

Other observations

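GRB7, the adaptor gene that rose, lies on chromosome 17 next but 1 to ERBB2 in RefSeq order, in a stretch that is often amplified with ERBB2 in cancers. Of the 21 protein-coding genes from 10 places before GRB7 to 10 places after it, 17 were measured. Apart from GRB7, for whose change the stretch was chosen, 5 of 16 measured genes rose and 0 fell, beside 5.23% of all genes higher in 3D. The neighbours that rose were the cholesterol transport gene STARD3 (11.19 ± 0.10 in 3D, 10.20 ± 0.13 in 2D cells, SD, n = 3 each), PGAP3 (10.75 ± 0.05 in 3D, 10.04 ± 0.14 in 2D cells), PNMT (7.35 ± 0.16 in 3D, 6.22 ± 0.37 in 2D cells), TCAP (6.39 ± 0.08 in 3D, 5.73 ± 0.08 in 2D cells) and LRRC3C (4.72 ± 0.08 in 3D, 4.08 ± 0.27 in 2D cells). The first 4 kept their calls without any single array, whereas the call of LRRC3C ended when replicate 2 or 3 of either group was left out (0.118 at most). MIEN1, between ERBB2 and GRB7, averaged 10.34 ± 0.19 in 3D and 10.11 ± 0.09 in 2D cells (limma adjusted p = 0.317), and CDK12 and MED1, at the far end of the stretch, gave 0.11 ± 0.14 and 0.01 ± 0.10 (SE). ERBB2 was not analysed here. The arrays give RNA values and not copy number, and the cause of these rises was not tested.

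EPGN, EREG, AREG and BTC follow each other on chromosome 4, and the 3 measured genes of this row varied together among the 2D arrays. EPGN was dim, averaging 2.80 in 3D and 3.18 in 2D cells, where the mean lower quartile of the arrays was 2.93. Relative to the 2D mean, 2D replicate 2 lay at -0.34 for EPGN, -0.55 for EREG and -0.37 for BTC, and 2D replicate 3 at 0.25, 0.42 and 0.33 for the same genes. Among the 3D arrays, replicate 2 was the highest for each of them, at 0.15, 0.35 and 0.22 above the 3D mean. HBEGF, EGR1, FOS and DUSP1 ran the other way in 2D replicate 2, which lay 0.36, 1.09, 0.81 and 0.42 above the 2D mean. This pattern was noticed in the values, rests on 3 arrays a group and was not tested.

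Transcripts inside the loci of changed members gave no call. All were dim, the mean lower quartile of the arrays being 2.93, so the lack of a call says little about them. MIR548F2, inside ERBB4, averaged 2.03 ± 0.51 in 3D and 2.05 ± 0.12 in 2D cells (SD, n = 3 each, limma adjusted p = 0.974). EGFR-AS1, antisense to EGFR, averaged 3.12 ± 0.10 in 3D and 3.35 ± 0.26 in 2D cells (SD, n = 3 each; limma adjusted p = 0.403). NRG1-IT3, inside NRG1, averaged 3.08 ± 0.51 in 3D and 3.28 ± 0.12 in 2D cells (limma adjusted p = 0.692).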
